A study of Mus musculus with 4 samples.

Results

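Immediate-early transcription factors of the AP-1, Egr, Atf3 and Klf10 families were followed in mouse left ventricle. The set held 10 genes, namely Fos, Fosb, Fosl2, Jun, Junb, Jund, Egr1, Egr2, Atf3 and Klf10, and was taken by gene symbol as all 12 probe sets that the platform annotation assigns to them, of 22690 on the array (20380 with a single gene, standing for 12393 genes). Jun and Egr2 had 2 probe sets each and the other genes 1. Each of 4 arrays carried pooled total RNA of 1 group: IL-18 null banded, IL-18 null sham, wild-type banded and wild-type sham. Banding is transaortic constriction, which narrows the aorta and loads the ventricle with pressure, and the series asks what the cytokine IL-18 contributes to gene expression in the resulting hypertrophy. The IL-18 null banded pool held 6 hearts banded for 1 week, from null mice on a C57BL/6 background, and the IL-18 null sham pool held 5 hearts. For the wild-type pools the design gives 5 to 6 animals per group, while the sources used here leave unstated their strain and banding time, the strain of the IL-18 null sham pool, and the age of every group.

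Immediate-early genes are transcribed within minutes of a stimulus from factors that are already present in the cell, and their short-lived messenger RNAs usually decay soon after. Fos and Jun family proteins pair through leucine zippers to form AP-1, which binds DNA of growth, matrix and inflammatory genes, while Egr proteins and Klf10 bind GC-rich sites through zinc fingers. In the heart, stretch, adrenergic agonists and acute pressure load are known inducers of Fos, Jun and Egr1.

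Values are intensities on a linear scale. A floor of 64 intensity units (log2 6) was used: values below it were set to it before a difference was taken, so a difference with 1 array below the floor is a bound and is given as "at least" or called a bound. The array that reached the floor fixes the direction of a bound. Differences are on the log2 scale, and a gene was counted at a difference of at least 1, which is 2-fold. With 1 pooled array per group the spread between hearts is not known for any difference, and no test was run between 2 arrays. In a bulk sample, fewer cells of a type and less RNA per cell cannot be told apart.

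Of the 10 genes, 7 reached the floor on 1 or more arrays (9 of 12 probe sets), as did 5158 genes in all. Fosb, Fosl2 and Junb were below it on all 4 arrays and enter no comparison. The targeted gene Il18 had intensities between 7.4 and 9.1 on all arrays, below the floor, so it could not check the genotype labels. All 6 cardiomyocyte markers, such as Myh6 and Ttn, were above the floor on every array. The wild-type sham array stood apart: its Pearson's r across genes was 0.863 with IL-18 null banded, 0.871 with IL-18 null sham and 0.774 with wild-type banded, against 0.951 between the null arrays. A 3′ bias index, the mean log2 difference between the 3′ and the middle probe sets of Gapdh, Actb and the bacterial control dap, was 3.01 in IL-18 null banded, 3.37 in IL-18 null sham, 0.72 in wild-type banded and 4.74 in wild-type sham. The wild-type arrays thus lay at both ends of the index. The control dap, which is no transcript of the tissue, had 2.81 in IL-18 null banded and 2.69 in IL-18 null sham. It had 0.30 in wild-type banded and 4.73 in wild-type sham, so the index is not of tissue RNA alone. The part of array and RNA quality in the wild-type results was not tested.

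Promoter sequences of 4 members, Fos, Egr2, Atf3 and Jun, are shown from RefSeq (build GRCm38.p6), each from 250 bases before an annotated transcript start to 50 after it. RefSeq windows were matched for 8 of the 10 genes (12 windows, 5 of them of Egr2), all but Egr1 and Klf10. The Fos window lies at chr12:85473640-85473939 on the plus strand, the Egr2 window at chr10:67537619-67537918 on the plus strand, the Atf3 window at chr1:191183284-191183583 on the minus strand and the Jun window at chr4:95052173-95052472 on the minus strand. The Egr2 window shown is 1 of 5 at different transcript starts, taken because it holds TGACG and the CArG box; the first Egr2 window held no motif searched. All are written on the strand of the gene, and capitals mark TGACG on either strand (the core of the cAMP response element, bound by CREB and ATF proteins), the CArG box (bound by serum response factor) and TATAAA.
Fos: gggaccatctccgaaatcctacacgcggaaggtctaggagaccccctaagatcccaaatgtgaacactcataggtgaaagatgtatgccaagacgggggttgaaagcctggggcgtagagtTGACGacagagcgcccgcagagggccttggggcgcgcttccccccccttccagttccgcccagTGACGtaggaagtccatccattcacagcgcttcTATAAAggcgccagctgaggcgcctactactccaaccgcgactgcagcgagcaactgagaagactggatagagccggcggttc
Egr2: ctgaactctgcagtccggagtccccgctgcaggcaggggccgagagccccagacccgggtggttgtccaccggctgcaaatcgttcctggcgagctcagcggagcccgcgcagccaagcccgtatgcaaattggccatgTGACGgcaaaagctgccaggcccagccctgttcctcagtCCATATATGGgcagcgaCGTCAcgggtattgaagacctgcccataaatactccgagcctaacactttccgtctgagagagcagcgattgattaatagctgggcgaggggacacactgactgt
Atf3: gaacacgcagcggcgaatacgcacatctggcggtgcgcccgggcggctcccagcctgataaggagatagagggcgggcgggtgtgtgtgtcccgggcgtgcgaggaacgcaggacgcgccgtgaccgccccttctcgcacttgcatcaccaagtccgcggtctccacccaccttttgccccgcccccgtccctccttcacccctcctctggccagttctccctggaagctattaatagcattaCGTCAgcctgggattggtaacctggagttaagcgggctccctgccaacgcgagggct
Jun: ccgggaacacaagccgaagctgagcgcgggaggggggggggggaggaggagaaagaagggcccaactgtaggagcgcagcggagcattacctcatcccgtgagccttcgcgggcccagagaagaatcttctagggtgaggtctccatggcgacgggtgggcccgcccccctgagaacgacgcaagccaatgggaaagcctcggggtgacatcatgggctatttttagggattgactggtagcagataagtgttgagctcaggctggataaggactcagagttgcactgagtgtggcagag

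The TGACG core stood in the windows of Fos (2 matches), Egr2, Atf3, Fosb and Junb, and in 20.8% of all 32851 windows of this length. The Jun, Jund and Fosl2 windows held none. A CArG box was found in 4 of the 5 Egr2 windows and in no other member window, against 1.63% of all windows. Egr2 windows 3, 4 and 5 held the same sites, shifted with the transcript start, so they are not separate finds. Egr1 and Klf10 had no window, and sequence more than 250 bases before a start was not searched. TATAAA stood in the Fos and Junb windows and in 13.6% of all, and the Egr-type motif GCGNGGGCG in those of Fosb and Fosl2 and in 5.55% of all. Neither the full element TGACGTCA, which contains TGACG, nor the AP-1 motif TGANTCA matched any member window (1.79% and 7.81% of all windows). All motifs were searched on both strands, and near matches were not counted, such as tgacatca in the Jun window. These matches describe letters in a window and were not tied to the intensities.

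**Figure D1:**
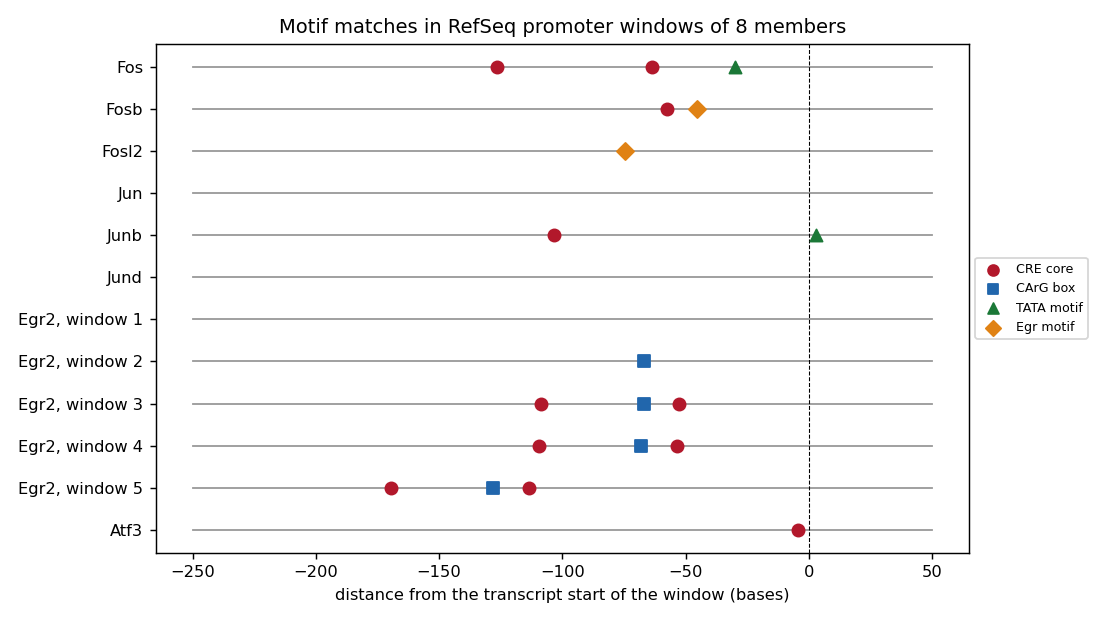
Positions of motif matches in the 12 RefSeq promoter windows of 8 members, as distance in bases from the transcript start of each window (dashed line); symbols stand for the TGACG core of the cAMP response element (CRE core), the CArG box, TATAAA and the Egr-type motif. The TGACG core is in windows of 5 genes, and CArG boxes are in Egr2 windows alone among the 8 members with a window.

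Fos, the founding Fos subunit of AP-1, spanned the widest range of any member. Its intensity was 1632.4 in IL-18 null banded and 4468.7 in IL-18 null sham, and 28.7 in wild-type banded and 9347.3 in wild-type sham. It was therefore high in both sham arrays, lower in the banded null array and below the floor in the banded wild-type array alone. The banding difference was -1.45 in IL-18 null (2.74-fold lower) and a bound of -7.19 in wild type (at least 146-fold lower). The other Fos-family genes gave no comparison: Fosb had 53.8 and 54.4 in IL-18 null banded and sham, and 9.0 and 25.7 in wild-type banded and sham, while Fosl2 lay between 4.6 and 5.6 throughout. Values below the floor carry no order.

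Among the Jun subunits, the zipper partners of Fos, Jun was low in the banded null array. Its brighter probe set (1417409_at) read 205.7 in IL-18 null banded and 507.9 in IL-18 null sham, and 462.8 in wild-type banded and 328.6 in wild-type sham. The banded null array was the lowest of the 4, while the wild-type arrays lay between the null arrays. Jun was lower by banding in IL-18 null (-1.30, 2.47-fold) and differed by 0.49 in wild type. The other Jun probe set (1448694_at) read 175.3 in IL-18 null banded, 436.3 in IL-18 null sham, 323.8 in wild-type banded and 148.6 in wild-type sham. It gave nearly the same null difference (-1.32) but a wild-type one past 2-fold (1.12), so the probe sets disagreed on the wild-type count.

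Jund, the subunit that is present in resting cells, had 1173.4 and 1086.8 in IL-18 null banded and sham, and 814.4 and 1189.3 in wild-type banded and sham. All 4 arrays were within 2-fold of each other. Its differences were 0.11 in IL-18 null (-0.0014 after quantile normalization) and -0.55 in wild type. Junb, another inducible subunit, read between 8.0 and 10.9 and was not measured.

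The zinc finger genes Egr1 and Egr2 were both low in the banded wild-type array. Egr1 had intensities of 3675.6 in IL-18 null banded and 4733.2 in IL-18 null sham, against 994.1 in wild-type banded and 3424.7 in wild-type sham. That is a banding difference of -0.36 in IL-18 null and -1.78 in wild type (3.45-fold lower). Egr2, known for its role in nerve myelination and also induced by growth stimuli, had 328.8 and 281.2 in IL-18 null banded and sham, and 69.8 and 620.5 in wild-type banded and sham (probe set 1427683_at). Its wild-type difference of -3.15 (8.89-fold lower) ranked 2 from the lowest among 4047 genes measured on both wild-type arrays, and its null difference was 0.23 (-0.01 with the mean of both probe sets). That ranking leaves out genes below the floor in wild-type banded, such as Fos, and Egr2 stayed in at 69.8, just above the floor. The other Egr2 probe set (1427682_a_at) was dimmer, at 74.6 in IL-18 null banded, 88.5 in IL-18 null sham, 26.9 in wild-type banded and 214.1 in wild-type sham. It also put wild-type sham highest and wild-type banded lowest, with a wild-type difference bounded at -1.74 and a null difference of -0.25.

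Atf3 and Klf10 shared a different order of the arrays. Atf3, a stress-induced bZIP repressor, read 720.1 in IL-18 null banded and 128.0 in IL-18 null sham, and 66.8 in wild-type banded and 327.7 in wild-type sham. Klf10, a zinc finger repressor first described as a gene induced by TGF-beta, read 347.6 and 82.1 in IL-18 null banded and sham, and 79.2 and 216.4 in wild-type banded and sham. For both, IL-18 null banded was the highest array, wild-type sham followed, then IL-18 null sham and wild-type banded. The last 2 were nearly equal for Klf10 (82.1 and 79.2). Atf3 was higher with banding in IL-18 null by 2.49 (5.63-fold) and at -2.29 in wild type (4.91-fold lower). The Klf10 differences were 2.08 (4.23-fold) in IL-18 null and -1.45 (2.73-fold lower) in wild type. With the floor at log2 7 the Klf10 wild-type difference was -0.76, which is within 2-fold, as that floor lies above the wild-type banded value.

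**Figure D2:**
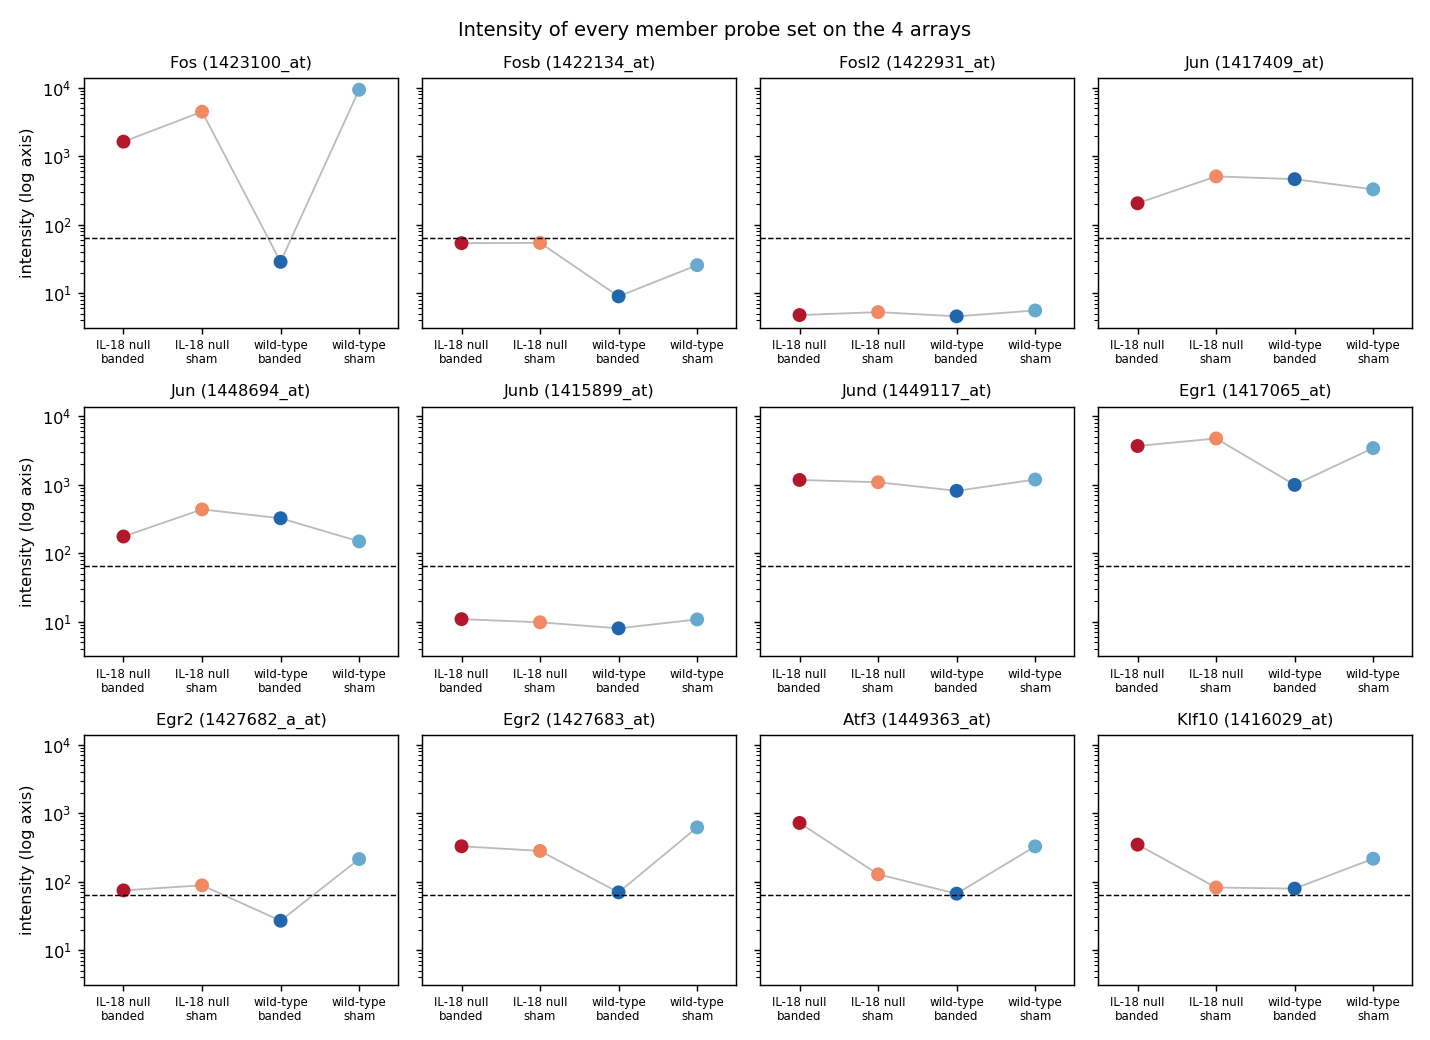
Intensity (log axis) of each of the 12 member probe sets on the 4 arrays, 1 pooled array per group, with the floor of 64 as a dashed line. Fos in wild-type banded (28.7) is the one point below the floor among the brightest probe sets of the 7 measured genes, and Fosb, Fosl2 and Junb lie below it throughout.

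Taking the banding comparisons by count, the members were mixed in IL-18 null and lower in wild type. In IL-18 null 2 of 7 were at least 2-fold higher (Atf3 and Klf10; 6.98% of 4827 genes were, and 5.47% after quantile normalization) and 2 at least 2-fold lower (Fos and Jun; 2.53% of genes were, and 3.18% after quantile normalization). In wild type 0 were higher (21.7% of 5040 genes were; 16.6% after quantile normalization and 24.3% after cyclic loess) and 5 were lower, Fos, Egr1, Egr2, Atf3 and Klf10 (12.8% of genes were; 24.8% after quantile normalization and 8.37% after cyclic loess). Fos entered the wild-type comparison through its sham array alone, and the other 6 members reached the floor on both arrays. The member median was 0.11 in IL-18 null, beside 0.08 over all genes, and -1.78 in wild type, beside -0.08 (-0.42 for all genes after quantile normalization). Atf3 and Klf10 were the 2 members lower in wild type and higher in IL-18 null by at least 2-fold each, a combination found in 0.953% of the 4618 genes tested in both. Fos was lower in both genotypes.

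**Figure D3:**
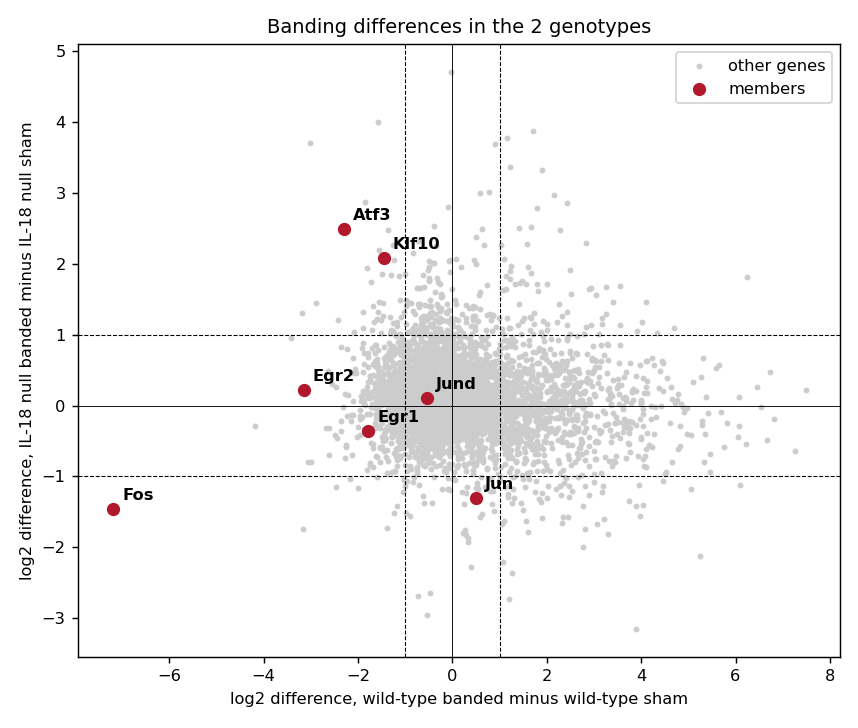
Floored log2 banding difference of each gene in wild type (horizontal) and in IL-18 null (vertical), for the 4618 genes tested in both; members are red, other genes grey, and dashed lines mark 2-fold. Fos (-7.19, a bound, and -1.45) lies at the far left, Atf3 (-2.29 and 2.49) and Klf10 (-1.45 and 2.08) at the upper left, and Jun (0.49 and -1.30) below the centre.

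Between the banded hearts, the IL-18 null array was the higher for most members. Fos was higher by at least 4.67 (at least 25.5-fold), Atf3 by 3.43 (10.8-fold), Egr2 by 2.24 (4.71-fold), Klf10 by 2.13 (4.39-fold) and Egr1 by 1.89 (3.7-fold). These 5 of 7 were at least 2-fold higher, where 5.7% of 4947 genes were (6.55% after quantile normalization, 3.87% after cyclic loess). Jun was the 1 member lower, at -1.17 (2.25-fold), where 7.74% of genes were (9.4% after cyclic loess), and Jund differed by 0.53. The other Jun probe set was at -0.89 (1.85-fold), within 2-fold. Fos entered through the IL-18 null array alone. Among 4454 genes measured on both banded arrays, Atf3 ranked 4, Egr2 16, Klf10 19 and Egr1 34 from the highest difference. This ranking leaves out genes below the floor on either array, such as Fos. In wild-type banded Atf3 (66.8), Egr2 (69.8) and Klf10 (79.2) lay just above the floor. With the floor at log2 7 their differences were bounds of at least 2.49, 1.36 and 1.44. Averaged probe sets put Egr2 at 1.29, also a bound. The member median was 2.13, beside 0.11 over all genes. The dimmer Egr2 probe set gave a bound of at least 0.22, which does not reach 2-fold. This comparison does not use the wild-type sham array, but both it and wild-type banding use the wild-type banded array, so low member signal there enters both.

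In the sham hearts, by the brightest probe set of each gene, the members were lower in IL-18 null or within 2-fold. Klf10 was at -1.40 (2.64-fold lower), Atf3 at -1.36 (2.56-fold), Egr2 at -1.14 (2.21-fold) and Fos at -1.06 (2.09-fold). These 4 of 7 were past 2-fold, where 6.29% of 4851 genes were (12.7% after quantile normalization, 4.34% after cyclic loess), and 0 were higher, where 16.3% were (13.3% after quantile normalization and 17.7% after cyclic loess). Fos lay at the 2-fold line and was at -0.98 after cyclic loess, and Klf10 was at -0.76 with the floor at log2 7. The member median was -1.06, beside -0.07 over all genes (-0.29 after quantile normalization). Egr1 differed by 0.47, Jund by -0.13 and Jun by 0.63. The other Jun probe set was at 1.55, past 2-fold higher, and averaged probe sets put Jun at 1.09. The count of 0 higher therefore holds for the brightest probe sets only. The wild-type sham array is subtracted here and in wild-type banding alike, and its high Fos, Egr2, Atf3 and Klf10 signal enters both.

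The difference of the banding responses, IL-18 null minus wild type, was at least 5.74 for Fos, 4.79 for Atf3, 3.53 for Klf10, 3.38 for Egr2, 1.42 for Egr1, 0.66 for Jund and -1.80 for Jun. It was above 1 for 5 of 7 members (20.4% of 5158 genes; 28.1% after quantile normalization, 13.6% after cyclic loess) and below -1 for Jun (21.0% of genes; 17.4% after quantile normalization). The member median was 3.38, beside 0.16 over all genes (0.42 after quantile normalization). Across all 3991 genes measured on every array, Atf3 ranked 3, Klf10 9 and Egr2 11 from the highest. Genes below the floor on any array, such as Fos, are left out of that ranking.

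Wild-type banded was the lowest of the 4 arrays for 6 of the 7 measured members, Jun being the exception. Over all 5158 genes wild-type banded was the lowest for 36.4%. For Klf10 the count rests on a near tie, 79.2 in wild-type banded and 82.1 in IL-18 null sham, and for Jund all arrays were within 2-fold. A count without the wild-type sham array, added after the data were seen, was again 6 of 7, beside 40.3% of 4996 genes. It is no check on that array, since a gene lowest in wild-type banded stays lowest there when another array is left out.

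An additive fit over the 4 arrays (limma, with terms for banding and for genotype, which leaves 1 residual degree of freedom) called 0 of 7 members and 0 of 5158 genes at an adjusted p of 0.05 for either term. Fos had a banding term of -4.90 ± 1.66 (SE) with an unadjusted p of 0.033 and a limma adjusted p of 1.00, and was the 1 member among 98 genes (1.9%) with an unadjusted p under 0.05. For genotype 13 genes (0.252%) and 0 members had an unadjusted p under 0.05. In this fit the residual is the difference of the banding responses itself, so a gene such as Atf3, with opposite responses, gets a banding term near 0 (0.10 ± 1.22, SE).

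The relatives and partners of these factors were counted in lists of related genes. Over all genes, banding shares past 2-fold were 6.98% higher and 2.53% lower in IL-18 null. In wild type they were 21.7% higher and 12.8% lower, and the list counts below stand beside these shares. Of other AP-1 and bZIP partners, 13 of 20 on the array were measured. With banding in IL-18 null, 4 of 12 tested reached the floor on the banded array alone, so that the floor fixed their direction, and of the 8 on both arrays 0 passed 2-fold. The bounds past 2-fold were those of Cebpd, an acute-phase C/EBP factor (at least 2.01), Crem, a CREB relative (at least 2.01), and Jdp2, a repressor that dimerises with Jun (at least 1.81). In wild type 2 of 11 were higher, Atf4 (2.02) and Atf6 (2.39), both factors of the unfolded protein response, and Atf2 was the 1 lower (-1.43), with a median of 0.02. Atf4 and Atf6 were also higher in IL-18 null sham than in wild-type sham (2.06 and 2.25), a comparison with the same wild-type sham array.

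Other immediate-early genes, of which 14 of 20 were measured, were split in IL-18 null. Banding gave 4 of 14 higher and 4 lower, with a median of 0.35. Gadd45b, a stress gene of the growth arrest family, was higher by 2.87, Ier5 by 2.81 and Ier3 by 1.38, and Zfp36, which encodes an mRNA decay factor, by 1.15. Rgs2, a regulator of G protein signalling, was lower (-1.16), as were Ccn1, Ier2 and Nr4a1 (between -1.27 and -1.21). In wild type, out of 13 tested, 0 passed 2-fold upward and 4 downward (median -0.09): Btg2, an antiproliferative gene (-2.65), Rgs2 (-2.00), Dusp1, which encodes a phosphatase that inactivates MAP kinases (-1.90), and Gadd45b (-1.85, a bound). Gadd45b, with 725.4 in IL-18 null banded, 99.4 in IL-18 null sham, 39.6 in wild-type banded and 230.6 in wild-type sham, had the same order of arrays as Atf3 and Klf10.

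Factors and kinases that act on these promoters and proteins were counted too. Of serum response factors and Egr co-repressors, 5 of 9 were measured and 0 passed 2-fold in either banding comparison, with medians of 0.12 in IL-18 null and -0.01 in wild type. Srf, the factor that binds the CArG box, had 324.9 and 253.2 in IL-18 null banded and sham, and 260.5 and 262.6 in wild-type banded and sham. Elk4, its ternary complex partner, was at 0.95 in IL-18 null and 0.01 in wild type, and Nab1, a co-repressor of Egr proteins, at 0.12 and -0.66. In the MAP kinase cascade, which phosphorylates Jun and the ternary complex factors, 1 of 11 was higher with banding in IL-18 null (Mapk10, 1.19) and 0 lower. In wild type, of 11 tested, Mapkapk2 (at least 3.37) and Map2k3 (at least 2.41) reached the floor on the banded array alone, which fixed their direction. Of the 9 on both arrays, Map2k4 (-1.49) and Mapk9 (-1.13) passed 2-fold, both lower. Mapkapk2 and Map2k3 were also higher in IL-18 null sham than in wild-type sham (at least 1.13 and 2.08), a comparison with the same wild-type sham array.

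Genes known as targets were counted next, without tying them to the members. Of AP-1 target genes 7 of 14 were measured, but 5 of the 7 reached the floor in IL-18 null banded alone. Their direction there was fixed by the floor, so no count or median is read from this list. Timp1, which encodes a protein that blocks matrix metalloproteinases, had 1327.3 in IL-18 null banded and 4.1 in IL-18 null sham, and 33.2 in wild-type banded and 4.5 in wild-type sham. The cytokine gene Il6 had 1286.0 in IL-18 null banded and 7.6 in IL-18 null sham, and 12.5 in wild-type banded and 62.1 in wild-type sham. The chemokine gene Ccl2, Hmox1, which encodes a heme oxygenase, and Cd44, a hyaluronan receptor gene, were likewise above the floor on that array and below it on the others. The filament gene Vim and the cyclin gene Ccnd1 were measured on all 4 arrays, at 1.20 and 0.24 with banding in IL-18 null. In wild type they were at 1.48 (Vim) and 1.46 (Ccnd1). Of Egr target genes 5 of 9 were measured. With banding in IL-18 null 3 of 5 were higher, Icam1 (3.87), Ptgs2 (at least 2.48) and Thbs1 (1.76), and 0 lower. In wild type Icam1 was higher (1.70), and Ptgs2, the inducible cyclooxygenase (-1.37, a bound), and F3, tissue factor (-1.08, a bound), were lower, of 4, each entering through the sham array alone. Among other Kruppel-like factors 4 of 8 were measured. None of the 4 passed 2-fold in IL-18 null (0 higher and 0 lower), and in wild type Klf9, a glucocorticoid-induced relative of Klf10, was the 1 lower (-1.74).

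**Figure D4:**
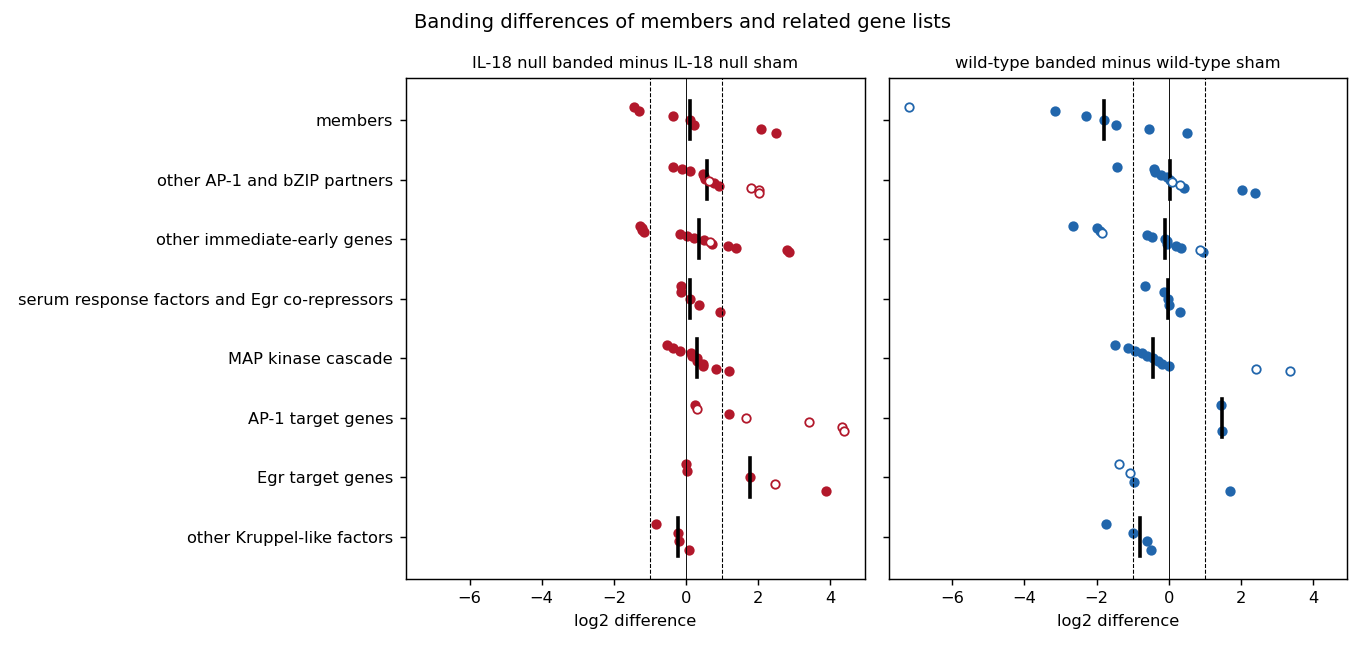
Floored log2 banding differences of the measured members (top row) and of 7 related gene lists, in IL-18 null (left) and wild type (right); each point is a gene, open where the difference is a bound, dashed lines mark 2-fold, and black bars are medians, left out where at least 50% of the genes are bounds. Member medians are 0.11 in IL-18 null and -1.78 in wild type, and 5 of the 7 AP-1 target genes at the left are bounds.

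Genes outside the set with the most similar pattern were found by the Euclidean distance between log2 intensities centred on their mean over the 4 arrays, without the floor. With 4 arrays this likeness describes these arrays and no more. Gadd45a, a growth arrest gene, was nearest to Egr1 (distance 0.43), with 324.4 in IL-18 null banded, 355.8 in IL-18 null sham, 87.9 in wild-type banded and 388.8 in wild-type sham; Tbk1, Rnmt, Sorl1 and Itgbl1 followed at 0.74 to 0.82. Nearest to Atf3 were Nts, which encodes neurotensin (0.36), Tnfaip6, which encodes a hyaluronan-binding protein (0.53), Gadd45b (0.55), Fmod, fibromodulin (0.56), and Errfi1, a feedback inhibitor of the EGF receptor (0.57). Klf10 lay at 0.94 from Atf3. Of these genes, Gadd45a and Errfi1 were at or above the floor on all 4 arrays, Itgbl1 was too, and the others were below it on at least 1, where the distance rests on values with no order. For Fos no distances are given, since Fos and the genes the measure picked (S100a8, S100a9, Lce1d, Bcl2l11 and Hdac11) were all below the floor in wild-type banded.

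**Figure D5:**
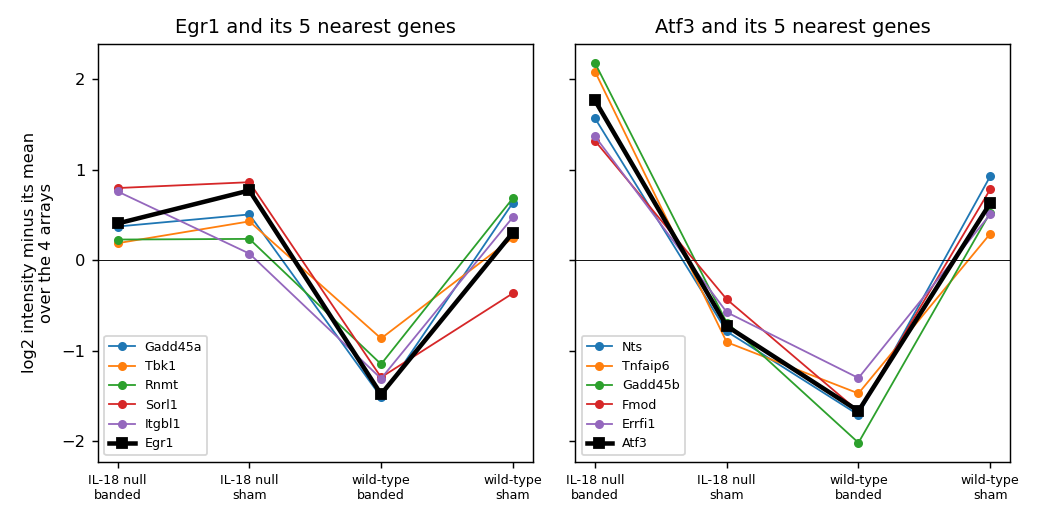
Unfloored log2 intensity minus its mean over the 4 arrays for Egr1 and Atf3 (black squares) and the 5 nearest genes outside the set (coloured). The nearest genes to Atf3 lie within a distance of 0.57 and those to Egr1 within 0.82.

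Marker lists of other cell types were set beside the members. Of 3 neutrophil markers on the array 2 were measured, and their summed intensity was 993.0 in IL-18 null banded, 499.0 in IL-18 null sham, 80.7 in wild-type banded and 895.7 in wild-type sham, with all 3 below the floor in wild-type banded. The 2 measured were S100a8 and S100a9, the genes that the likeness measure picked for Fos, so their course along Fos is no separate result. Csf3r, the neutrophil growth factor receptor, was below the floor throughout (10.9 to 12.5). The 6 macrophage markers summed to 4487.7 in IL-18 null banded and 1626.4 in IL-18 null sham, and to 2453.5 in wild-type banded and 2188.6 in wild-type sham. The 6 fibroblast markers summed to 26461.1 in IL-18 null banded and 12174.9 in IL-18 null sham, and to 21641.5 in wild-type banded and 9121.6 in wild-type sham. Single markers did not all follow these sums: Pdgfra was lowest in IL-18 null banded (354.3), Dcn highest in wild-type banded (10343.6) and Dpt highest in wild-type sham (2725.7). The macrophage marker Mpeg1 was lowest in wild-type banded (94.0). C1qa, another macrophage marker, read 366.9 in wild-type banded and between 6.3 and 6.6 on the other arrays. Sums over the 4 arrays ranged between 2270.4 and 3174.1 for 6 endothelial markers, between 1665.2 and 2857.5 for 4 smooth muscle markers (2 measured) and between 88594.1 and 119710.5 for the cardiomyocyte markers. Some markers within these sums varied more. From wild-type sham to wild-type banded, Pecam1 went from 18.7 to 406.8, Emcn from 98.2 to 929.2 and Actn2 from 429.1 to 9434.5. Others did not: Cdh5 lay between 635.6 and 736.9, and Ryr2 between 5505.3 and 6037.2. Red cell markers had 1 of 2 measured and skeletal muscle markers 0 of 4. The part of cell composition in the member differences was not tested.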

How the data were processed

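Total RNA of left ventricle, pooled within each group, was hybridised with biotin label to 4 arrays. The deposited values are intensity values per probe set, which the authors computed with GCRMA, per the submitters' processing notes. Its version and settings, and any scaling after it, are not given in the sources used here. The linear scale was read from the values. Groups came from the sample titles. Control probe sets (64) and probe sets with several genes (691) or none (1555) in the platform annotation were left out. For each gene the brightest probe set (by mean log2 intensity) was used, and every member probe set is also given. Counts used a floor at log2 6 and a 2-fold threshold, with no test. The additive fit used limma 3.58.1 in R 4.3.3 (lmFit, then eBayes with its trend option) on log2 values without the floor. Benjamini-Hochberg adjustment was over all genes tested. Counts and fit were run on simulated data with the spread of the IL-18 null arrays and equal banding effects in both genotypes. That run does not cover the wild-type comparisons. The members, the 7 gene lists, the 8 marker lists and the alternatives were chosen with earlier results of these data known. Genes were named by a rule: all members, up to 3 genes per list and banding comparison by size, and the 5 nearest genes of Fos, Egr1 and Atf3; genes that complete a count of 5 or fewer were named after their values were seen. Lists' genes absent from the platform annotation used here were not analysed here. Depth does not apply to arrays, and their number limits the precision.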

Additional observations from a re-analysis of the deposited data

Results flagged for a closer look

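Several genes had banding differences of opposite sign in the genotypes, each from 1 array per group, and the difference between genotypes was not tested. Atf3 differed by 2.49 in IL-18 null and -2.29 in wild type, a difference of responses of 4.79. For Klf10 the values were 2.08 and -1.45, a difference of 3.53. Egr2 had 0.23 in IL-18 null and -3.15 in wild type (3.38), and its null value is close to 0. Jun had the opposite signs, with -1.30 and 0.49 (-1.80). Jund had 0.11 and -0.55 (0.66), both within 2-fold. Among the related genes named, Gadd45b had 2.87 and -1.85, the second a bound (at least 4.72), and Ptgs2 2.48 and -1.37, both bounds (at least 3.85).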

How the results depend on the processing

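The counts of members past the threshold stayed within 1.5 times in all 5 comparisons under each of 9 other settings. These were floors at log2 5 and 7, no floor, quantile normalization, cyclic loess, median centring and averaged probe sets. The others left out probe sets that may cross-hybridise, or counted at 1.5-fold in place of 2-fold. At 1.5-fold the shares of all genes rose in all 5 comparisons, so a similar member count says less there. The lowest share was 24.5%, for IL-18 null banding, beside 9.51% at 2-fold. The highest was 61.7%, for the difference of banding responses, beside 41.4%. Of 280 recomputed member differences, 257 moved by less than 1.5-fold, 23 by more, and 0 past 2-fold turned sign. Many of the 280 could not move, so these counts are no measure of stability. Leaving out probe sets that may cross-hybridise changed no member value. The floor at log2 5 and no floor changed Fos alone, and averaged probe sets changed only Jun and Egr2. The wild-type banding difference of Fos lay between -8.35 without a floor and -6.19 with the floor at log2 7. That floor also moved the wild-type differences of Atf3 to -1.36 and of Egr2 to -2.28, and averaged probe sets put Jun past 2-fold in IL-18 null sham over wild-type sham (1.09). Over all genes, the count lower with wild-type banding was 647, 1273 after quantile normalization and 426 after cyclic loess, and that lower in IL-18 null sham was 305, with 638 after quantile normalization. The additive fit called 1 member, Fos, for banding after quantile normalization (0.896% of all genes) and 1, again Fos, without the filter on low values (1.55%); without that filter it called 1 for genotype, Fos (0.315%). The cause was not tested. The other alternatives of the fit (limma without the trend, an adjusted p of 0.1, cyclic loess, all probe sets of a gene averaged) called 0 members. Wild-type banded was the lowest array for 5 of 7 members after cyclic loess (25.1% of all genes). It was the lowest for 6 after quantile normalization (48.6%), after median centring (37.1%) and with averaged probe sets (30.9%). These recounts were chosen after seeing the data. No paired analysis was possible because each group has 1 array, and leaving out an array leaves no residual degree of freedom. Fosb, Fosl2 and Junb could not be compared because their signal was below the floor.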
